A study of Homo sapiens with 42 samples.

Results

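The set comprised all regions that the authors' annotation assigned to 10 Eph receptor genes, namely EPHA1, EPHA2, EPHA3, EPHA4, EPHA5, EPHA7, EPHB1, EPHB2, EPHB3 and EPHB4. The rule took every row whose gene symbol was a member in the 4 annotated count tables, and itself used no measured value. Those tables are a filtered part of the counted regions (69565 of 502962 in PC9). Their lowest mean counts were 5.22 to 9.08, so low regions had already been left out. The rule found 230 regions of 242490, all of 1 width: 68 of 69565 in PC9, 62 of 76952 in H1975, 19 of 30709 in HCC827 and 81 of 65264 in HCC2935. All 230 passed the filter on low counts and were tested. They belonged to 9 of the 10 genes, since no region was annotated to EPHA5.

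ATAC-seq, in which a transposase cuts and tags open chromatin, was read in 42 libraries of 4 human cell lines, all lung adenocarcinomas in which EGFR is activated. The libraries formed 14 groups of 3, given as biological triplicates. Persister cells (DTP, drug tolerant persister) of each line had been held in 500 nM osimertinib, an inhibitor of EGFR, for 24 days. In the sequential combination (combo), 21 days of osimertinib preceded 3 days of 150 nM AZD5153, a bivalent BET bromodomain inhibitor. The labels do not state whether osimertinib was kept on during those 3 days. Control cells grew drug-free for 21 days and then received DMSO for 3 days, and in PC9 and H1975 only, an AZD5153 group grew drug-free for 21 days and then received 150 nM AZD5153 for 3 days. Each line is a single cultured line, so a difference between lines is a difference between 4 cultures and not between classes of tumour.

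Eph receptors are receptor tyrosine kinases whose ligands, the ephrins, are fixed to the surface of neighbouring cells, so that signalling depends on cell contact. Class A receptors bind mainly the membrane-anchored ephrin-A proteins, class B receptors bind mainly the transmembrane ephrin-B proteins, and EPHA4 binds both. Binding signals into the receptor-bearing cell and, in reverse, into the ephrin-bearing cell, and the outcome is often repulsion or the sorting of cells into separate groups. EPHA2 is abundant in many epithelial tumours and can signal without a ligand, EPHB2 and EPHB3 position cells along the intestinal crypt, and EPHB4 with EFNB2 separates veins from arteries. Accessibility of a region near a gene is not a measure of its transcript or protein.

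The RefSeq promoter windows of 4 members are shown because their accessibility separates the results below. EPHB3 had the most accessible lead promoter of the set in every line, and EPHA1 lost most of its promoter signal in a single group. EPHA2 had the most regions lower in DTP cells (21 of 60, 35%, against 52% for EPHB1 and 23.7% of all regions). EPHA4 gained at its promoter in 3 combo groups. Each window runs from 250 bases before to 50 bases after the annotated start, 5′ to 3′ on the gene's strand, in GRCh38.p14. The positions are chr3:184561535-184561834 (plus strand) for EPHB3, chr7:143408807-143409106 (minus strand) for EPHA1, chr1:16156020-16156319 (minus strand) for EPHA2 and chr2:221572255-221572554 (minus strand) for EPHA4. Capitals mark the GC box (GGGCGG or CCGCCC) and, in EPHA2 only, the TEAD motif (CATTCC) and the CRE motif (TGACGTCA).
EPHB3: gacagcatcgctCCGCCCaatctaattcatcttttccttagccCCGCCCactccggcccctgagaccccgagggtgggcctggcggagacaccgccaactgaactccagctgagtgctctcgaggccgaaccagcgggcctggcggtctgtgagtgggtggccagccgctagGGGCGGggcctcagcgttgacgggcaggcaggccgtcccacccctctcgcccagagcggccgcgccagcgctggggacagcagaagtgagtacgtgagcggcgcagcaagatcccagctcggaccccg
EPHA1: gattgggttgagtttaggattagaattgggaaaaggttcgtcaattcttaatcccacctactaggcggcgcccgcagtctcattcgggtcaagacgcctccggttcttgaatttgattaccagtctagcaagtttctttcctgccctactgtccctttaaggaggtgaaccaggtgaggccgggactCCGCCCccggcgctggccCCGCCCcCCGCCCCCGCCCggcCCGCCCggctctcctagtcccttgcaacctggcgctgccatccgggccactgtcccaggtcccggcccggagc
EPHA2: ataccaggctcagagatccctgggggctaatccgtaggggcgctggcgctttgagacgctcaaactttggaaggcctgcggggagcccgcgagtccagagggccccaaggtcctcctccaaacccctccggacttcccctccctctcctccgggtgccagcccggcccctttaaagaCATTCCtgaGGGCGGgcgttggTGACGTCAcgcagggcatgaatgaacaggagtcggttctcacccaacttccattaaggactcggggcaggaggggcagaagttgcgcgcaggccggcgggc
EPHA4: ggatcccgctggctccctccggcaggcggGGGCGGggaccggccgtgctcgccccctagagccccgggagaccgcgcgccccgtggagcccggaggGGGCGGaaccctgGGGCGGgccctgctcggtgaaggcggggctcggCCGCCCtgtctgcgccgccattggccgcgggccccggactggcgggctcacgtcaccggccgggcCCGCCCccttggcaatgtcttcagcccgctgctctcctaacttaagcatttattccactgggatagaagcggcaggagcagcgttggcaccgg

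Motifs were searched on both strands in the 15 RefSeq windows of the 10 members and in 35116 windows of all genes. The pair of EPHB2 windows and a pair of the EPHA7 windows overlap each other. The GC box occurred in 14 of the 15, all but EPHA3, against 45% of all windows. The AP-1 motif (TGACTCA) occurred in none of the 15 and in 4.95% of all windows, and the E-box (CACGTG) in none of the 15 and in 7.26% of all. TEAD and CRE motifs each occurred in the EPHA2 window only, against 14% and 1.85% of all windows. A match describes letters in the window and is no evidence of binding.

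Several properties of the libraries bear on the values. Total counts in the tables were 1724680 to 4242868 in HCC827, 3989287 to 5193390 in PC9, 3968690 to 8066287 in HCC2935 and 6200672 to 10062505 in H1975. Pairs of libraries of the same group in PC9 and H1975 differed by 0.959 to 1.22 times the variance that counting alone gives, against 1.18 to 1.83 in HCC2935 and 1.21 to 8.76 in HCC827. P-values in PC9 and H1975 therefore rest on a spread close to counting noise, which may be technical, and counts of calls from summed libraries that assume the spread of HCC2935 are given beside those that they move most. In simulated data of the HCC827 DTP comparison, 18.7% of regions changed 4-fold and 0% of those changed 2-fold were recovered. The shares were 92.6% and 51.9% for PC9, 94.3% and 51.9% for H1975 and 93.4% and 38.0% for HCC2935. Few simulated regions were changed (75 by 4-fold and 67 by 2-fold of 17202 for HCC827), at 1 constant spread per line. Recovery in the real fits may differ. The real HCC827 spread was uneven, at 3.87 to 8.76 for pairs with library 3 and 1.21 to 1.92 for the others. In the H1975 AZD5153 libraries the median change exceeded 0.5 on the log2 scale in 72 of 297 bins of 10 Mb, and the summed lead promoter level of 5 epithelial markers (EPCAM, CDH1, KRT8, KRT18 and KRT19) was 54.1 to 57.6 CPM (counts scaled to the library total) against 129 to 137 in control, with 5 of 5 markers lower. The HCC2935 DTP comparison had 47 of 300 bins beyond 0.5. All 5 epithelial markers had a lead promoter region in each line, while among 5 markers of other cells PTPRC, of blood cells, had none in any line. The summed level of the markers of that list with a lead promoter region was 31.0 to 40.7 CPM in PC9 control and 24.7 to 27.8 in PC9 DTP, 25.9 to 29.2 and 19.7 to 23.9 in H1975, 28.5 to 30.7 and 29.7 to 30.6 in HCC2935 and 18.4 to 23.4 and 20.8 to 28.8 in HCC827, with 14.9 to 15.6 in H1975 AZD5153. Of the lung markers, SFTPB had none in PC9 and HCC2935 and NAPSA had none in HCC827, and the summed level of the lung list in DTP cells fell from 45.9 to 52.3 CPM to 32.1 to 35.1 CPM in H1975 and from 40.5 to 46.3 to 22.0 to 29.1 in HCC2935.

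The 230 regions were spread unevenly over the genes. EPHA2 held 60 (18, 19, 5 and 18 in PC9, H1975, HCC827 and HCC2935), EPHA4 held 47 (17, 8, 1 and 21), EPHB3 held 36 (15, 8, 3 and 10), EPHB4 held 27 (5, 13, 3 and 6), EPHB1 held 25 (3, 4, 3 and 15) and EPHB2 held 21 (5, 7, 2 and 7). EPHA1 had 7 regions, EPHA7 had 5 and EPHA3 had 2, the latter in PC9 only. Promoter regions, within 3 kb of a transcript start in the authors' classes, made up 73 of the 230 (31.7%) against 48.4% of all annotated regions, while 68 were intronic and 66 intergenic. Assignment was to the nearest gene: 134 of the 230 overlapped the member's own RefSeq gene and 96 did not, among them 35 of the 60 EPHA2 regions, 19 of the 36 EPHB3 regions and 15 of the 27 EPHB4 regions. Which gene such a region acts on was not tested.

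Lead promoters, defined for each gene and line as the region within 1 kb of a start with the highest mean CPM, ranked the receptors within the untreated cells. All regions have the same width, so no correction for length was needed. Copy number was not accounted for in this ranking. EPHB3 was highest in each line, with 47.6, 48.8 and 57.8 CPM in the PC9 control libraries, 43.5, 46.3 and 49.6 in H1975, 26.3, 29.1 and 40.0 in HCC827 and 30.0, 36.7 and 37.0 in HCC2935. EPHA4 followed in PC9 (39.2 ± 1.7 CPM, SD, n = 3), EPHA1 in H1975 (25.8 ± 2.0), EPHB4 in HCC827 (21.4 ± 5.9) and EPHB1 in HCC2935 (26.7 ± 2.1). At the other end, the EPHB2 lead promoter held 2.95 ± 0.40 CPM in H1975, the only line in which an EPHB2 region within 1 kb of a start was annotated, and EPHB1 held 3.71 ± 0.35 CPM in PC9. Regions over the EPHB2 start outside the annotated tables held more, 3.70 ± 1.11 CPM in PC9 control and 4.66 ± 0.16 in HCC827 control. Such a region over the EPHB1 start held 2.50 ± 0.41 CPM in H1975 control.

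**Figure D1:**
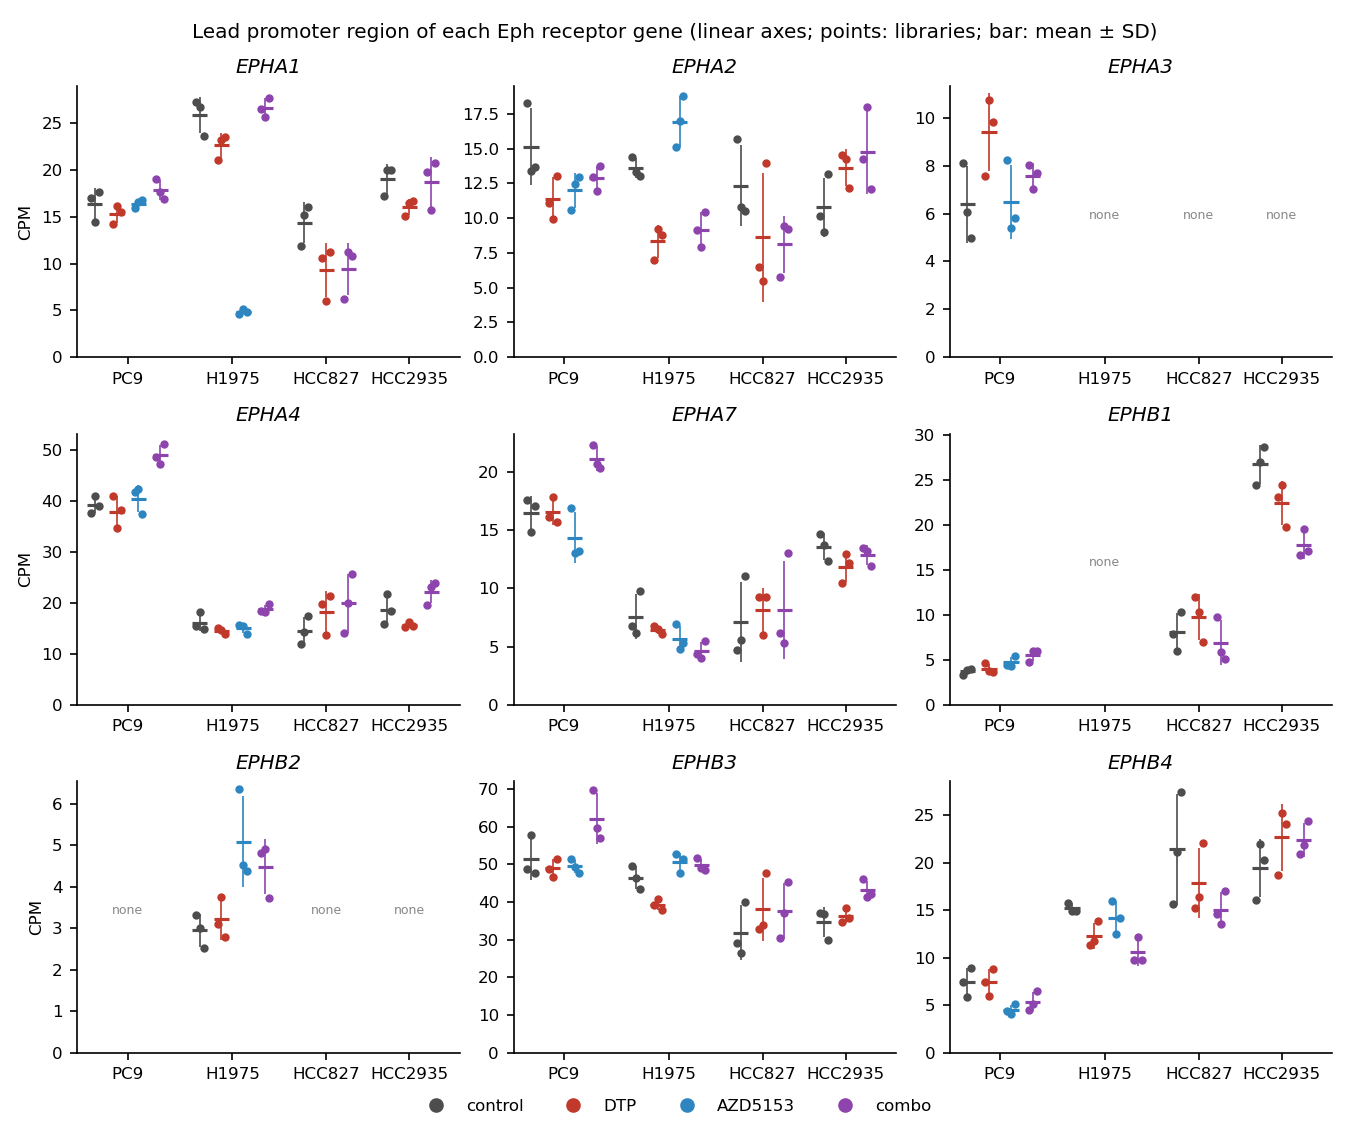
Accessibility in CPM (linear axes) of the lead promoter region of each Eph receptor gene in every library, by cell line and treatment, with bars for the mean and SD of 3 libraries. EPHB3 control means lay above those of the other members in each line, and the 3 H1975 AZD5153 libraries at EPHA1 sat between 4.61 and 5.13 CPM, below the 23.6 to 27.2 CPM of control.

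Over regions matched in all 4 tables, 52 of 59 member regions tested differed between the control libraries of the lines, where 86.7% of all matched regions did. EPHA4 was most open in PC9: its promoter at chr2:221572104-221572605 held 37.8 CPM there against 19.0 in HCC2935 (adjusted p = 1.3e-07), 15.9 in H1975 and 15.6 in HCC827, and the last pair did not differ beyond the spread (adjusted p = 0.43). The order of an intronic EPHA4 region at chr2:221517530-221518031 was another, with 57.3 CPM in HCC2935, 18.5 in PC9, 7.58 in H1975 and 3.07 in HCC827, and each step passed the test (adjusted p at most 9.8e-04). The EPHB1 promoter had a wide range, from 27.2 CPM in HCC2935 through 8.57 in HCC827 and 3.57 in PC9 to 2.46 in H1975, and each neighbour differed (adjusted p = 7.9e-09, 4.0e-05 and 0.042). At EPHB4 the promoter at chr7:100827456-100827957 ran from 22.9 CPM in HCC827 and 19.8 in HCC2935, which did not differ (adjusted p = 0.12), to 14.9 in H1975 and 5.74 in PC9. EPHB3 ranked PC9 first (49.5 CPM), then H1975 (45.7), HCC2935 (35.2) and HCC827 (34.0), and EPHA1 held 25.4 in H1975, 19.4 in HCC2935, 15.8 in PC9 and 15.5 in HCC827. No neighbouring pair of lines passed the test for either (adjusted p = 0.056 to 0.82 for EPHB3 and 0.060 to 0.86 for EPHA1). These levels come from the matched tables and differ slightly from the within-line CPM. Copy number, line and sequencing run cannot be told apart in them.

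In DTP cells EPHA2, EPHB1 and EPHB4 had more regions lower than higher, and EPHA4 had more higher than lower. Over the 4 lines together, 19.2% of all annotated regions were called higher and 23.7% lower. EPHA2 had 5 of 60 regions higher and 21 lower (8.33% and 35%), EPHB1 had 1 and 13 of 25 (4% and 52%), EPHB4 had 2 and 9 of 27 (7.41% and 33.3%) and EPHA4 had 14 and 7 of 47 (29.8% and 14.9%). EPHB3, with 5 and 10 of 36 (13.9% and 27.8%), and EPHB2, with 6 and 4 of 21 (28.6% and 19.0%), lay nearer to the shares of all regions. The regions of a gene are neighbours and were not tested as a group. A site annotated in more than 1 line is counted once for each, and HCC827 regions, none of them called, are included. Lines enter the pooled shares unevenly: 13 of the 27 EPHB4 regions are from H1975, where 36.9% of all regions were lower. Of the 13 lower EPHB1 regions, 10 are from HCC2935. None of the 5 EPHA7 regions passed the test, and 2 of 7 EPHA1 regions were lower. In PC9 EPHB3 had 4 of 15 higher and 1 lower, beside 16.5% and 21.5% of all PC9 regions. With library size as the only scaling, H1975 EPHB3 turned from 1 higher and 5 lower to 2 and 2 and HCC2935 EPHA2 from 2 and 4 to 4 and 4, and with the median of each 10 Mb bin removed HCC2935 EPHA4 turned from 6 and 3 to 4 and 5. A smaller share of cells with an open region and a less open region in every cell cannot be told apart in such bulk libraries.

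In PC9, 10 of 68 regions were higher and 16 lower in DTP cells, beside 16.5% and 21.5% of all annotated regions. Of the promoter regions 7 of 27 changed, beside 29.6% of all, and of the others 19 of 41, beside 47.1%. H1975 had 10 of 62 higher and 28 lower (25.7% and 36.9% of all regions), with 11 of 19 promoter regions changed (53.0%) and 27 of 43 others (71.0%). HCC2935 had 14 of 81 higher and 22 lower (23.4% and 21.7%), with 2 of 18 promoter regions changed (36.1%) and 34 of 63 others (52.4%). In HCC827 no member region passed edgeR's test or had an unadjusted p under 0.05, and DESeq2 called none, where edgeR called 0.0393% of all regions higher and 0.0131% lower. The share of members called in either direction was 38.2% in PC9, 61.3% in H1975 and 44.4% in HCC2935, close to the 38.1%, 62.6% and 45.1% of all regions. With the libraries of a group summed and the spread of HCC2935 assumed, PC9 gave 14 calls, all among the 26. With library size as the only scaling the H1975 split was 14 higher and 22 lower, and this scaling moved the median of all tested regions by 0.17 in H1975 and 0.10 in HCC2935 on the log2 scale.

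**Figure D2:**
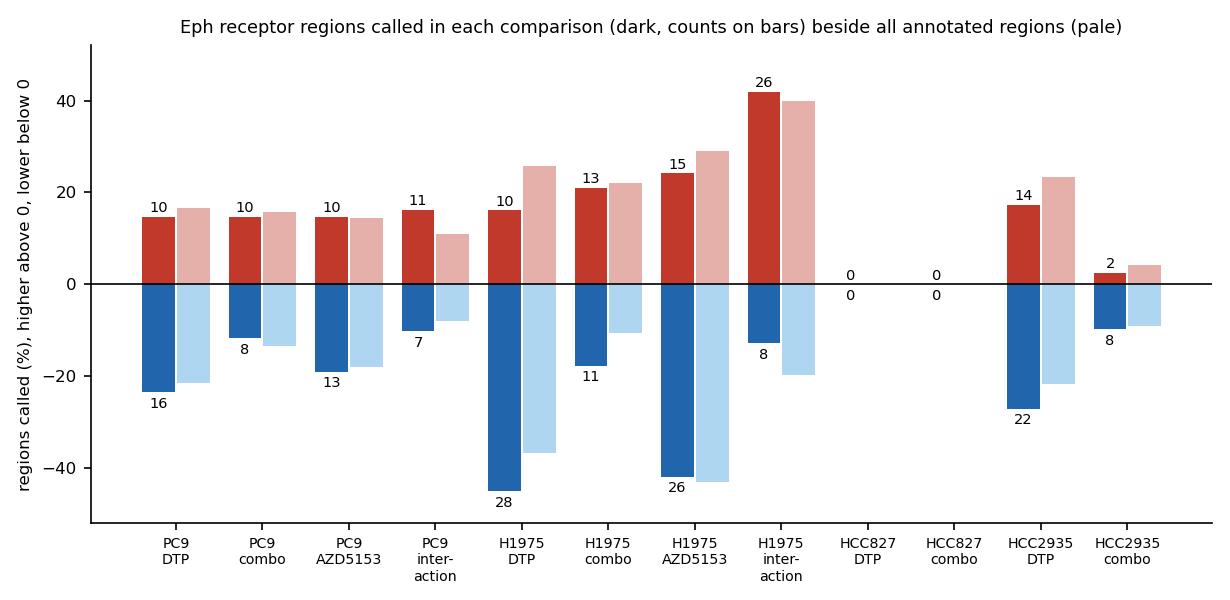
Percentage of regions called in each comparison, higher above 0 and lower below 0, with Eph receptor regions as dark bars (their number on each bar) and all annotated regions of the line as pale bars. The DTP bars hold 10 and 16 regions in PC9, 10 and 28 in H1975 and 14 and 22 in HCC2935, close to the pale bars beside them, and HCC827 has no call.

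EPHA2 lost accessibility at a set of sites within and beyond the gene. An intronic region at chr1:16138703-16139204 held 23.1, 18.9 and 16.3 CPM in the PC9 control libraries and 9.93, 6.83 and 9.04 in DTP. The same site in H1975, chr1:16138661-16139162, held 13.8, 14.2 and 15.8 CPM in control and 2.86, 3.14 and 3.89 in DTP, and in HCC2935 it went from 21.7, 13.2 and 18.7 CPM to 6.32, 5.80 and 5.01. The groups did not overlap in any of these 3 lines, which the rule for naming regions required in H1975. The log2 change was −1.15 in PC9 (SE 0.15, adjusted p = 2.7e-12), −2.14 in H1975 (SE 0.15, adjusted p = 1.4e-30) and −1.66 in HCC2935 (SE 0.20, adjusted p = 3.2e-09). In HCC827 the matched region held 5.39 to 9.64 CPM in control and 1.97 to 5.39 in DTP and was not among the annotated regions. The change differed between the 3 tested lines (adjusted p = 0.0015).

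A region beyond the 3′ end of EPHA2, at chr1:16120915-16121416 in PC9, was also lower in 3 lines. PC9 control libraries held 5.85, 3.45 and 5.75 CPM there and DTP libraries 1.36, 0.207 and 1.61. The means were 11.2 and 3.12 CPM in H1975 (log2 change −1.84, SE 0.17, adjusted p = 3.0e-21) and 11.8 and 6.50 CPM in HCC2935 (−0.85, SE 0.21, adjusted p = 0.0010), and the PC9 change was −2.19 (SE 0.36, adjusted p = 2.9e-08). This region and the PC9 and HCC2935 values of the intronic site were chosen after their values were seen. The lead EPHA2 promoter, which in PC9, H1975 and HCC2935 lies at an inner start and not at the RefSeq start shown above, fell in PC9 from 15.1 ± 2.8 to 11.4 ± 1.6 CPM (−0.39, adjusted p = 0.032, a call lost under 8 of 14 alternatives of scaling, filter, test or libraries) and in H1975 from 13.6 ± 0.72 to 8.33 ± 1.19 (−0.69, adjusted p = 6.6e-07), while HCC2935 held 10.8 ± 2.1 and 13.6 ± 1.3 CPM (0.35, adjusted p = 0.13). Not every EPHA2 site closed. A promoter region at chr1:16146233-16146734, near an inner start, held 2.21, 2.64 and 1.81 CPM in H1975 control and 5.95, 4.56 and 6.29 in DTP, a rise of 1.33 (SE 0.21, adjusted p = 1.9e-08), and its HCC2935 counterpart rose from 3.79 to 7.41 CPM (0.96, adjusted p = 0.0018), also named after its values were seen. The PC9 counterpart held 4.73 and 3.41 CPM (−0.45, adjusted p = 0.20), and the DTP change at the matched region differed between the lines (adjusted p = 1.1e-04).

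The EPHA4 sites with the largest rises in DTP cells were low in control. A region past the 3′ end of the gene, chr2:221402023-221402524, held 2.03, 2.64 and 3.18 CPM in the PC9 control libraries and 18.5, 19.7 and 15.9 in DTP, a log2 change of 2.75 (SE 0.20, adjusted p = 5.6e-35). In HCC2935 the site, chr2:221402036-221402537, held 0.185, 0.998 and 1.05 CPM in control and 7.75, 7.45 and 5.34 in DTP (3.29, SE 0.39, adjusted p = 3.0e-09). The naming rule required that the groups not overlap in either line. An intronic EPHA4 region at chr2:221461878-221462379 rose in HCC2935 from 0.925, 1.25 and 1.05 to 8.22, 6.21 and 5.66 CPM (2.63, SE 0.35, adjusted p = 5.0e-08). Its PC9 counterpart, named after its values were seen, rose from 1.18 ± 0.37 to 5.03 ± 0.99 CPM (2.10, SE 0.35, adjusted p = 4.7e-08). H1975 had no annotated EPHA4 region at either site. Its largest EPHA4 rise under the naming rule was at chr2:221629396-221629897, from 2.21, 1.92 and 1.45 to 4.12, 4.46 and 4.09 CPM (1.19, SE 0.24, adjusted p = 6.8e-06). Other intronic EPHA4 sites went down, such as chr2:221444044-221444545 in PC9, from 11.2, 12.6 and 9.72 to 5.26, 4.76 and 4.22 CPM (−1.23, SE 0.20, adjusted p = 2.1e-08).

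At EPHB1, a receptor known mostly from the nervous system, 10 of the 15 HCC2935 regions were lower in DTP cells and none was higher. Of all HCC2935 regions, 21.7% were lower and 23.4% higher. An intronic region at chr3:135170580-135171081 went from 13.3, 12.5 and 11.05 CPM to 1.42, 0.828 and 2.75 (log2 change −2.91, SE 0.29, adjusted p = 3.1e-11), and another at chr3:135017466-135017967 went from 20.4, 23.7 and 14.7 CPM to 3.48, 3.59 and 4.21 (−2.39, SE 0.22, adjusted p = 3.2e-12). Groups that did not overlap were a condition of the naming rule at both regions. Their 10 Mb bin had a median change of −0.03, and the EPHB1 promoter held 26.7 ± 2.1 and 22.4 ± 2.4 CPM (−0.24, adjusted p = 0.15). An intronic EPHB1 region at chr3:134846866-134847367 was lower in PC9, from 8.65, 7.91 and 7.94 to 1.95, 2.90 and 2.41 CPM (−1.74, SE 0.25, adjusted p = 3.4e-10). The matched site fell by 0.89 in H1975 (8.23 to 4.46 CPM) and by 1.14 in HCC2935 (21.4 to 9.73 CPM) on the log2 scale, and in HCC827 it held 15.1 ± 3.1 and 12.6 ± 3.2 CPM and was not called. Whether its change differed between the 3 tested lines missed the threshold (adjusted p = 0.070). In H1975 an intronic region at chr3:135197190-135197691 held 9.82, 10.3 and 9.04 CPM in control and 0.0999 to 0.114 in DTP, 0.204 to 0.346 in AZD5153 and 0.117 to 0.557 in combo, levels so low that no fold change is given.

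EPHB2 regions rose in HCC2935, where 5 of 7 were higher and none lower, beside 23.4% and 21.7% of all HCC2935 regions. The intronic EPHB2 region at chr1:22751123-22751624 went in PC9 from 2.80, 2.84 and 2.78 to 8.37, 9.31 and 9.24 CPM (1.67, SE 0.24, adjusted p = 2.3e-10). HCC2935 gave 3.33, 3.49 and 1.58 CPM in control and 6.48, 8.01 and 6.63 in DTP at the same place (1.30, SE 0.27, adjusted p = 1.9e-04). In the matched table H1975 held 2.00 and 1.92 CPM, and the change differed between the lines (adjusted p = 3.9e-04). That held for HCC2935 only: EPHB2 had 0 of 7 regions higher and 2 lower in H1975, and 1 of 5 higher and 2 lower in PC9. EPHB4 had 1 of 6 regions higher and 0 lower in HCC2935. In H1975, EPHB4 had 7 of 13 regions lower and 1 higher (36.9% and 25.7% of all, 45.5% and 25.5% outside promoters). The region with the largest fall among them, chr7:100793905-100794406, which the authors' annotation classes as 3′ UTR but which lies outside the RefSeq EPHB4 gene, held 20.2, 16.5 and 20.5 CPM in control and 5.03, 4.86 and 3.49 in DTP (−2.09, SE 0.14, adjusted p = 3.4e-35). A strong region just past the 3′ end of EPHB4, chosen after its values were seen, fell from 44.0 to 29.1 CPM in H1975 (−0.59, adjusted p = 1.9e-12) and from 23.0 to 15.0 CPM in PC9 (−0.62, adjusted p = 9.8e-06).

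**Figure D3:**
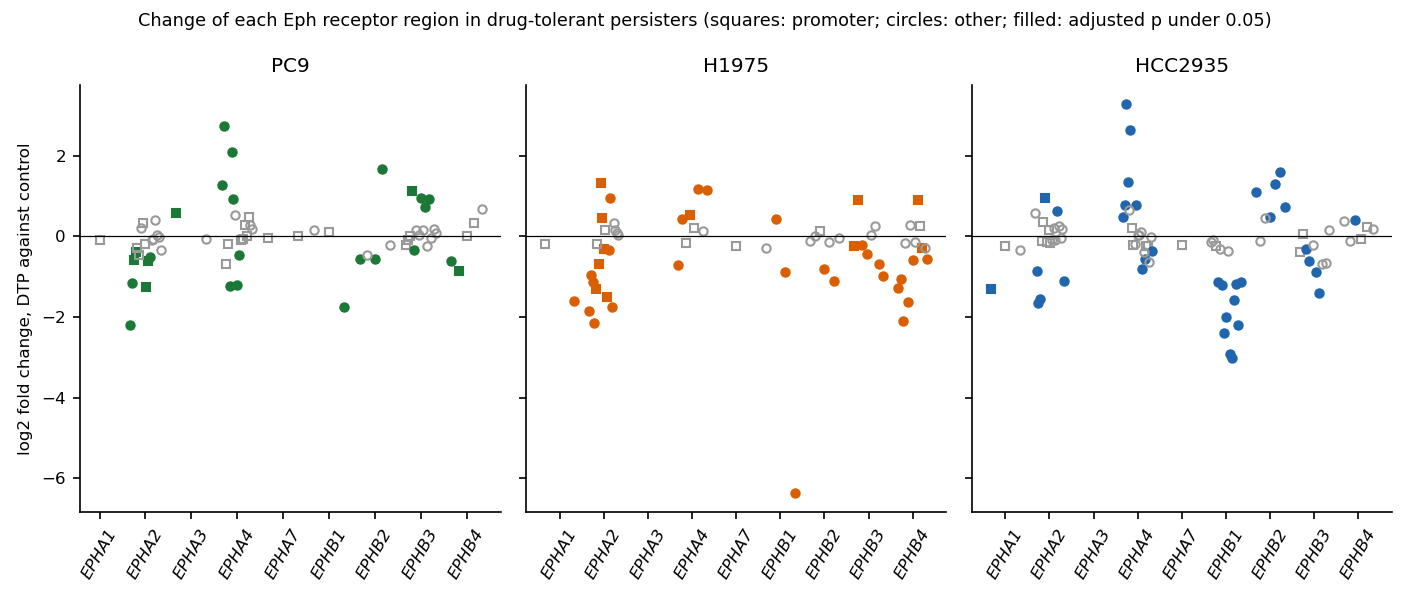
Log2 fold change of DTP against control for every Eph receptor region in PC9, H1975 and HCC2935, by gene, with squares for promoter regions, circles for others and filled symbols for an adjusted p under 0.05. EPHB1 in HCC2935 has 10 filled circles below 0, EPHA4 has filled circles up to 2.75 in PC9 and 3.29 in HCC2935, and the isolated H1975 EPHB1 point is the region near 0.1 CPM in DTP.

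Besides EPHA2, the lead promoters that passed the test in DTP cells were EPHB3 in H1975, from 43.5, 46.3 and 49.6 to 37.9, 39.2 and 40.7 CPM (−0.24, adjusted p = 0.0023), EPHB4 in H1975, from 15.2 ± 0.49 to 12.3 ± 1.4 CPM (−0.30, adjusted p = 0.020), and EPHA3 in PC9, from 4.96, 6.09 and 8.14 to 7.59, 9.84 and 10.8 CPM (0.58, SE 0.19, adjusted p = 0.013). The 10 Mb bin of EPHA3, a receptor of the developing nervous system, had a median change of 0.43, and with regional medians removed the call was lost. The calls of EPHA3, EPHB3 and EPHB4 were lost under 7 of 14, 5 of 15 and 9 of 15 alternatives, for EPHB3 and EPHB4 also with library size as the only scaling. None passed in HCC2935. With EPHA2 counted, 1 of 8 member lead promoters was higher and 1 lower in PC9, beside 14% and 11.2% of all lead promoters tested. The counts were 0 and 3 of 7 in H1975 (19.9% and 28.1%) and 0 and 0 of 7 in HCC2935 (21.5% and 11.3%).

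Of the 60 member regions matched between the tables and tested for a DTP change that differed between PC9, H1975 and HCC2935, 29 passed, where 46.0% of all matched regions did. The 3 with the lowest p lay at EPHA4, EPHB3 and EPHA1. The EPHA4 intronic region at chr2:221517530-221518031 held 20.1, 20.1 and 17.5 CPM in PC9 control and 34.6, 35.6 and 38.8 in DTP, while in the matched table its log2 change was −0.67 in H1975 and −0.25 in HCC2935 against 0.98 in PC9 (adjusted p = 1.4e-14). HCC827, which did not enter that test, held 2.39 to 4.13 CPM in control and 10.2 to 34.3 in DTP at the matched site. An intergenic EPHB3 region at chr3:184601663-184602164 changed by 0.78, −1.12 and −1.47 (adjusted p = 1.7e-06), with 4.20 and 7.08 CPM in PC9 control and DTP, 0.779 and 0.346 in H1975, and 5.06 and 1.87 for HCC2935. The EPHA1 region at chr7:143415639-143416140, which lies in an exon of another gene, changed by −0.18, −1.57 and −0.42 (adjusted p = 3.8e-06). There the H1975 libraries fell from 15.1 to 17.8 CPM to 4.11 to 6.31, and PC9 stayed between 1.00 and 1.76 CPM in both groups.

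**Figure D4:**
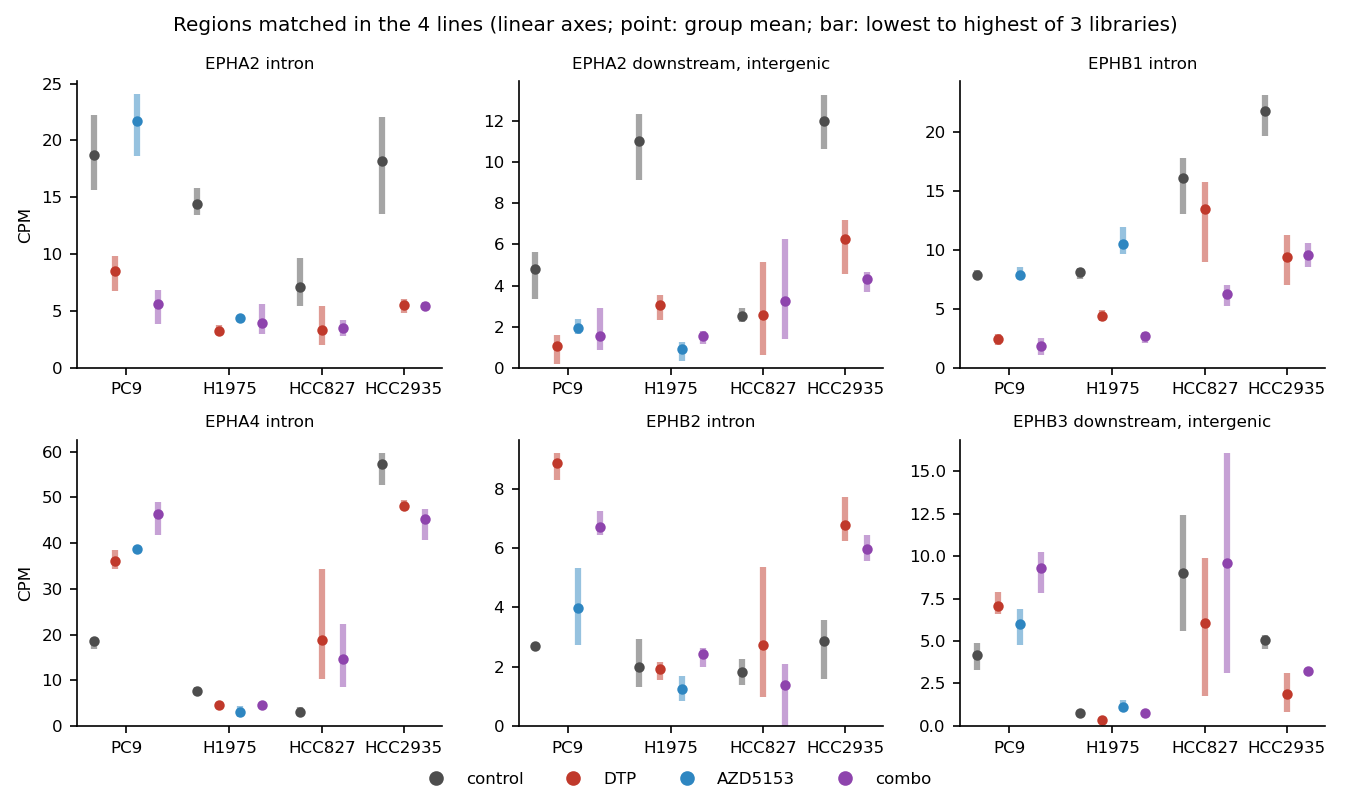
CPM (linear axes) of 6 matched Eph receptor regions in all 14 groups, with points for group means and bars from the lowest to the highest of 3 libraries. The upper row shows the EPHA2 intronic and downstream regions and the EPHB1 intronic region, with DTP below control in PC9, H1975 and HCC2935. They were picked for the lowest mean DTP change over these lines within their gene and class, above a set control level. Their fall is therefore how they were chosen and no separate result, and the EPHA2 intronic change also differed between the lines. The lower row shows regions whose DTP change differed between lines, such as the EPHA4 intronic region at 18.5 CPM in PC9 control and 36.0 in PC9 DTP. These were picked for the lowest p between lines or, at EPHB2, for the highest PC9 change.

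Combo against DTP gave fewer calls in PC9, H1975 and HCC2935 than DTP against control. DTP cells had 24 days of osimertinib and combo cells 21 before AZD5153. An effect of AZD5153 and one of a possible stop of osimertinib therefore cannot be told apart in combo. In PC9, 10 of 68 regions were higher and 8 lower in combo than in DTP cells, beside 15.7% and 13.6% of all regions. H1975 gave 13 of 62 higher and 11 lower (22.0% and 10.6%), and HCC2935 gave 2 of 81 higher and 8 lower (4.17% and 9.03%). HCC827 gave no call among 19 with edgeR or DESeq2 and 1 with an unadjusted p under 0.05, and edgeR called 0% of all its regions in either direction. The counts of all 3 rest on thin margins. DESeq2 called 9, 12 and 4 in PC9, H1975 and HCC2935, summed libraries with the spread of HCC2935 gave 6 in PC9 and 5 in H1975, and leaving out single libraries gave 11 to 15, 17 to 21 and 3 to 9. In PC9 the fits without DTP library 1 or combo library 1 gave 11 each, and in HCC2935 those without DTP library 1 or 2 gave 3 each and those without combo library 1 or 3 gave 4 and 6. Removing regional medians gave 12 higher and 6 lower in PC9, and library size alone gave 9 higher and 13 lower in H1975.

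Among lead promoters, 3 of 8 were higher and 0 lower in PC9 combo than DTP, 3 and 1 of 7 in H1975, and 1 and 0 of 7 in HCC2935. Of all member promoter regions, 5 of 27 were higher and 3 lower in PC9 (17.4% and 10.2% of all such regions). The counts were 9 and 1 of 19 in H1975 (25.8% and 7.96%) and 2 and 1 of 18 in HCC2935 (5.98% and 4.73%). HCC827 had no call. The EPHA4 lead promoter rose in PC9 from 34.8, 38.2 and 40.9 to 47.3, 48.6 and 51.2 CPM (0.37, SE 0.08, adjusted p = 1.3e-04), in H1975 from 13.9, 14.7 and 15.0 to 18.2, 18.4 and 19.8 CPM (0.38, SE 0.10, adjusted p = 0.0024) and in HCC2935 from 15.2, 15.5 and 16.3 to 19.6, 23.1 and 24.0 CPM (0.50, SE 0.14, adjusted p = 0.014). In all 3 lines every combo library lay above every DTP library, and the HCC2935 call was lost under 7 of 13 alternatives, the PC9 and H1975 calls with summed libraries only. EPHB3 rose in PC9 from 46.6, 48.7 and 51.4 to 57.0, 59.6 and 69.7 CPM (0.35, adjusted p = 3.6e-05) and in H1975 from 37.9, 39.2 and 40.7 to 48.6, 49.1 and 51.6 CPM (0.34, adjusted p = 3.0e-05), and both calls were lost with summed libraries only. EPHA7 rose in PC9 (16.5 to 21.1 CPM, 0.36, adjusted p = 0.022) and fell in H1975 (6.44 to 4.62 CPM, −0.46, adjusted p = 0.035), and EPHA1 rose in H1975 (22.6 to 26.6 CPM, 0.23, adjusted p = 0.033). The EPHA7 calls were lost under 5 of 14 and 8 of 15 alternatives, and the EPHA1 call under 10 of 15, among them library size alone and regional medians removed. Lead promoters of all genes shifted the same way, with 23.3% higher and 7.70% lower in PC9, 36.3% and 5.50% in H1975 and, for HCC2935, 7.52% and 2.76%. The summed epithelial marker level was also higher in PC9 combo (155 to 162 CPM) than in PC9 DTP libraries (110 to 118 CPM), and its part in these results was not tested.

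Among single regions, the EPHA4 site that had opened in PC9 DTP cells at chr2:221402023-221402524 closed again in part, from 18.5, 19.7 and 15.9 to 5.88, 5.96 and 6.86 CPM (−1.53, SE 0.16, adjusted p = 5.2e-17). Its HCC2935 counterpart held 6.85 ± 1.3 CPM in DTP and 7.32 ± 0.62 in combo (0.10, SE 0.22, adjusted p = 0.83). The EPHB4 start region in PC9 at chr7:100827456-100827957 fell from 6.81, 8.28 and 7.63 to 4.11, 4.26 and 3.00 CPM (−0.99, SE 0.23, adjusted p = 3.2e-04). EPHB3 gained at an intronic region, chr3:184567011-184567512 (3.50, 4.55 and 2.61 to 8.62, 4.68 and 6.64 CPM, 0.91, adjusted p = 0.0018, a call lost with DESeq2 and without combo library 1), and beyond its 3′ end at chr3:184583428-184583929 (6.03, 6.21 and 8.03 to 10.2, 14.5 and 11.1 CPM, 0.81, adjusted p = 1.1e-04). In H1975 the EPHA2 region at chr1:16143247-16143748 went back up from 3.89, 3.14 and 2.40 to 7.27, 5.46 and 5.52 CPM (0.96, SE 0.19, adjusted p = 2.1e-05), close to the 6.99 to 8.16 CPM of control.

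Falls in H1975 combo cells were led by an intergenic EPHB3 region at chr3:184636767-184637268, from 4.57, 6.18 and 3.99 to 3.05, 1.00 and 1.91 CPM (−1.32, SE 0.23, adjusted p = 1.1e-06), and a region at chr7:100801176-100801677 past the 3′ end of EPHB4, from 3.09, 3.34 and 3.30 to 1.76, 1.00 and 1.40 CPM (−1.22, SE 0.27, adjusted p = 1.4e-04). The EPHB4 region at chr7:100837250-100837751, in an exon of another gene, rose from 12.4 to 14.5 CPM in DTP libraries to 20.1 to 21.3 in combo (0.65, SE 0.10, adjusted p = 3.5e-08). In HCC2935, 6 of 15 EPHB1 regions were lower than in DTP (9.03% of all regions), and 4 of the 6 had already been lower in DTP than in control. At chr3:135194702-135195203 the control, DTP and combo means were 22.8, 4.91 and 1.93 CPM (combo against DTP −1.36, SE 0.30, adjusted p = 0.0017), and at chr3:135192147-135192648 they were 7.81, 2.60 and 1.03 CPM (−1.37, SE 0.38, adjusted p = 0.015). The first call was lost without DTP library 2, and the other with DESeq2 and without DTP library 1 or 3 or combo library 1 or 2, with an adjusted p of up to 0.12. The other HCC2935 rise, at the EPHA4 promoter region chr2:221573390-221573891, went from 10.6 ± 1.9 to 15.1 ± 0.77 CPM (0.52, SE 0.16, adjusted p = 0.036), and this call was lost under 7 of 13 alternatives.

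AZD5153 without osimertinib gave more calls in H1975 than in PC9, as it did over all regions. PC9 had 10 of 68 regions higher and 13 lower than control (14.4% and 18.0% of all regions). H1975 had 15 of 62 higher and 26 lower (29.0% and 43.2%), with 24 of 43 regions outside promoters lower (55.2% of all such regions) and 8 of 19 promoter regions higher (39.9%). Summed libraries gave 7 calls in PC9, and DESeq2 called 8, while the fits without AZD5153 library 1, control library 2 or control library 3 gave 15, 14 and 15. The direction in H1975 depended on scaling, with 21 higher and 24 lower by library size alone and 24 and 25 with regional medians removed, and in PC9 library size alone gave 12 and 9.

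H1975 EPHA1 showed the sharpest promoter loss of the set. The control libraries held 23.6, 26.7 and 27.2 CPM and the AZD5153 libraries 4.61, 4.79 and 5.13, with no overlap, a log2 change of −2.42 (SE 0.13, adjusted p = 2.4e-47). The median of its 10 Mb bin was −0.42. PC9 EPHA1 held 16.4 ± 1.7 and 16.4 ± 0.41 CPM (0.01, SE 0.13). Among other H1975 regions, an EPHB2 intronic region at chr1:22826773-22827274 went from 7.88, 9.49 and 6.99 to 0.231, 0.778 and 0.815 CPM (−3.72, SE 0.28, adjusted p = 9.9e-30) and the region past the 3′ end of EPHA2 at chr1:16120894-16121395 from 12.7, 11.8 and 9.16 to 1.04, 0.311 and 1.12 CPM (−3.64, SE 0.23, adjusted p = 3.6e-36). The first intron of EPHB3 at chr3:184565647-184566148, chosen after its values were seen, went from 38.9, 47.6 and 41.4 to 9.34, 9.33 and 9.07 CPM (−2.21, SE 0.10, adjusted p = 3.1e-57), with a bin median of −0.48. EPHA2 went against the falls, with 8 of 19 regions higher and 4 lower, beside 29.0% and 43.2% of all regions. The inner promoter region at chr1:16146233-16146734 rose from 2.21, 2.64 and 1.81 to 6.57, 6.85 and 6.63 CPM (1.58, SE 0.21, adjusted p = 1.1e-11) and an upstream region at chr1:16167804-16168305 from 1.52, 3.00 and 1.08 to 4.84, 5.29 and 5.71 CPM (1.48, SE 0.24, adjusted p = 8.6e-09). The EPHA2 region at the RefSeq start shown above went from 5.67 to 7.69 CPM in control to 12.2 to 13.8 (0.99, SE 0.14, adjusted p = 1.2e-10). At the lead promoters EPHA2 rose by 0.33 (13.6 to 16.9 CPM, adjusted p = 0.0076) and EPHB2 by 0.79 (2.95 to 5.08 CPM, adjusted p = 6.4e-04), and EPHA7 fell by 0.40 (7.56 to 5.68 CPM, adjusted p = 0.029) on the log2 scale. With EPHA1 counted, 2 of 7 H1975 lead promoters were higher and 2 lower, beside 40.4% and 26.7% of all lead promoters tested. The EPHA7 call was lost under 8 of 14 alternatives, among them library size alone and regional medians removed, and the EPHA2 call under 6 of 14, regional medians removed among them. These H1975 libraries are the ones with shifted bins and low epithelial markers, of which CDH1 held 31.7 CPM in control and 4.46 with AZD5153, and the part of either in the EPH values was not tested.

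In PC9 the largest rise under the naming rule was at the EPHA4 intron chr2:221517530-221518031, from 20.1, 20.1 and 17.5 to 39.8, 40.5 and 40.8 CPM (1.08, SE 0.10, adjusted p = 8.3e-23), near the 34.6 to 38.8 CPM of the DTP libraries. A promoter region of EPHB3 at chr3:184562468-184562969 rose from 1.27, 2.64 and 1.79 to 3.27, 3.53 and 4.14 CPM (0.90, SE 0.32, adjusted p = 0.025), a call lost with DESeq2, with summed libraries and without AZD5153 library 3, control library 1 or control library 3. Intergenic regions assigned to EPHB3 fell, at chr3:184636780-184637281 from 6.61, 8.72 and 7.74 to 2.50, 2.41 and 2.82 CPM (−1.58, SE 0.25, adjusted p = 8.6e-09) and at chr3:184645199-184645700 from 6.36, 8.52 and 9.92 to 2.50, 3.34 and 2.63 CPM (−1.56, SE 0.24, adjusted p = 2.6e-09). The EPHB4 lead promoter fell from 5.88, 7.37 and 8.93 to 4.08, 4.42 and 5.08 CPM (−0.71, SE 0.22, adjusted p = 0.0075), a call lost with DESeq2, with summed libraries, without a filter on low counts and without control library 3. Of 8 PC9 lead promoters, 0 were higher and 1 lower, beside 8.68% and 13.7% of all lead promoters tested.

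The interaction was the combo against DTP change minus the AZD5153 against control change. The first of these may also hold a stop of osimertinib, so the interaction is not a measure of AZD5153 alone. In PC9, 11 of 68 regions had a higher and 7 a lower value after osimertinib (10.8% and 8.10% of all regions), and in H1975 26 of 62 were higher and 8 lower (40.0% and 19.8%). In PC9 summed libraries gave 3 calls, all among the 18, DESeq2 gave 5, the fit without combo library 3 gave 10 and library size alone split them 8 to 8. The same scaling gave 23 higher and 15 lower in H1975 and turned EPHA2 there from 6 higher and 4 lower to 5 and 8. The EPHA1 promoter in H1975 held 21.0 to 23.6 CPM in DTP and 25.6 to 27.7 in combo, so that its interaction was 2.65 (SE 0.16, adjusted p = 1.4e-40). EPHA4 was the only other lead promoter with a called interaction in H1975 (0.49, SE 0.15, adjusted p = 0.0040), and with regional medians removed it was −0.13 (adjusted p = 0.54) and with library size alone 0.26 (adjusted p = 0.14). Of all H1975 lead promoters tested, 30.3% had a higher and 21.1% a lower interaction, beside 2 and 0 of 7 members. In PC9 the lead promoter interactions of EPHA4 (0.33), EPHA7 (0.55) and EPHB3 (0.41) were higher (adjusted p = 0.041, 0.024 and 0.0017). These calls were lost under 13, 11 and 3 of 20 alternatives, for EPHA4 and EPHA7 also with library size alone. They were 3 of 8 members, with 0 lower, beside 13.5% higher and 3.45% lower of all PC9 lead promoters. The combo and AZD5153 changes of the H1975 EPHB2 intronic region were 0.10 and −3.72, with 7.62, 7.91 and 9.83 CPM in the combo libraries. The interaction at that region was 3.83 (SE 0.32, adjusted p = 4.1e-24).

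**Figure D5:**
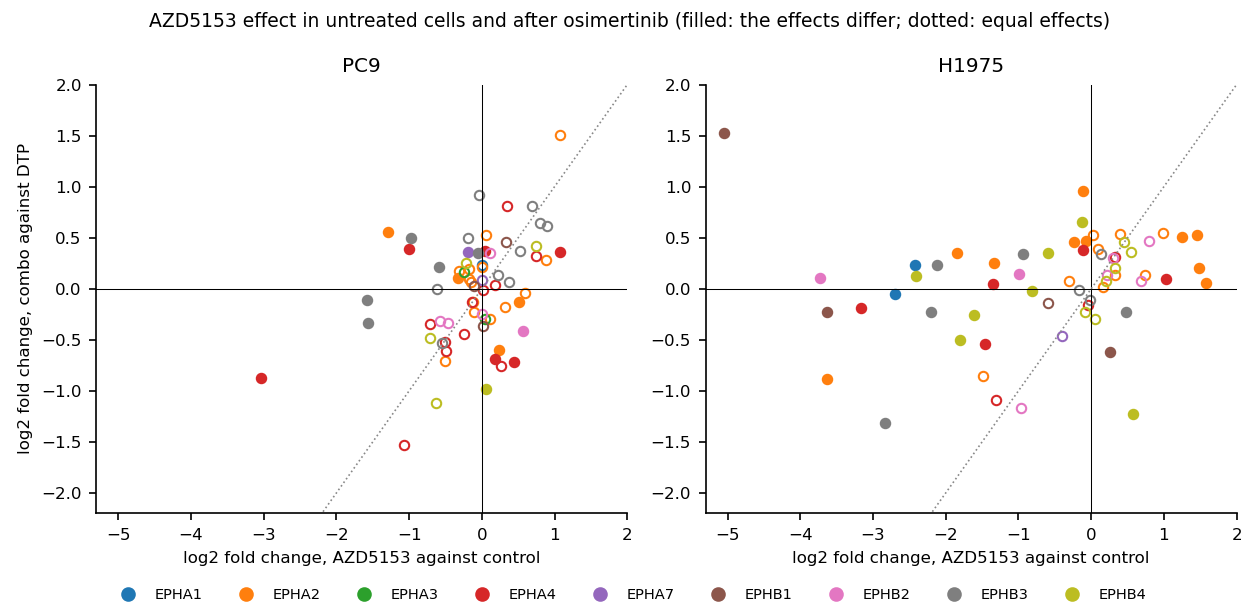
Log2 fold change of combo against DTP (vertical axis) and of AZD5153 against control (horizontal axis) for each Eph receptor region in PC9 and H1975, coloured by gene, with filled symbols where the interaction passed the test and a dotted line of equal effects. H1975 has 34 filled symbols, among them the EPHA1 promoter at −2.42 and 0.23, and PC9 has 18.

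Ephrin ligands were read at their lead promoters as a further list. In DTP cells 2 of 8 were higher and 1 lower in PC9, 1 and 4 in H1975, 4 and 0 in HCC2935 and none of 6 in HCC827 with edgeR, against 14% and 11.2%, 19.9% and 28.1%, 21.5% and 11.3%, and 0% and 0% of all lead promoters tested. EFNA1, a ligand of EPHA2, fell in PC9 from 24.7 to 14.7 CPM (−0.77, SE 0.12, adjusted p = 1.6e-08) and in H1975 from 31.5 to 16.4 CPM (−0.94, SE 0.09, adjusted p = 6.1e-20), and rose in HCC2935 from 12.7 to 18.1 CPM (0.53, SE 0.16, adjusted p = 0.0065). EFNB2, the partner of EPHB4, fell in H1975 from 24.3 to 17.5 CPM (−0.48, adjusted p = 3.1e-06), together with EFNB1 and EFNA2, while EFNA5 rose from 2.73 to 6.17 CPM (1.14, adjusted p = 3.6e-07). Of 16 partners and effectors (15 in H1975), 2 were higher and 2 lower in PC9, 1 and 5 in H1975 and 1 and 2 in HCC2935. With combo against DTP, 3, 8 and 2 of them were higher in PC9, H1975 and HCC2935 and 0, 1 and 0 lower, beside the shares of all lead promoters given above (23.3%, 36.3% and 7.52% higher). ADAM10, the protease that cleaves ephrins, and FYN, a kinase of the SRC family, were among the higher in each. ADAM10 went from 30.1 to 36.6 CPM in PC9, from 18.9 to 25.5 in H1975 and from 32.0 to 42.6 in HCC2935.

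EPHA5 had no annotated region, yet libraries held signal at its starts. A region over its inner start, outside the annotated table, rose in PC9 from 0.643 ± 0.719 CPM in control to 2.01 ± 0.35 in DTP (log2 change 1.59, SE 0.52, adjusted p = 0.0094). The region over its outer start was annotated to the antisense gene EPHA5-AS1, with 9.43 ± 1.17 CPM in PC9 control and 2.55 ± 0.48 in HCC2935 control. Peak summits called by the authors fell in these windows in 8 and 13 of 42 libraries, against 42 of 42 at the main EPHA4 start, 40 of 42 at EPHA1, EPHA2 and EPHB3, 35 at EPHB1 and 13 at EPHA3.

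Across the 14 group means, the lead promoters of other genes that followed each member most closely were listed by Pearson's r among 12617 genes. Those most like EPHA1 included TMEM30B (0.967) and ARHGAP32 (0.955), while EPHA4 was most like MAP3K20 (0.976), ATF2 (0.974) and CLP1 (0.957), and EPHB3 like RUFY1 (0.980), BCLAF1 (0.969) and SEC63 (0.962). EPHA7 was most like CNFN (0.962) and EPHB1 like CCDC85C (0.920). The points share libraries, lines and depth, and MAP3K20 and ATF2 lie on the chromosome of EPHA4.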

How the data were processed

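ATAC-seq libraries of 4 human lung adenocarcinoma lines were compared, 42 in all. The deposited tables hold read counts per region, whole numbers that the authors did not normalize, with total counts and groups as given in the report. Per the labels and the submitters' processing notes, tools were BWA 0.7.17, SAMtools 1.9, deepTools 3.4, MACS2 2.2.6, featureCounts 2.0.0 and ChIPseeker 1.29.1 on hg38. The authors' peak files give a −log10 q-value for each peak, of which only the summit positions were used. The extract protocol in the labels describes H3K27ac ChIP, while titles and design give ATAC-seq, and the data are read as ATAC-seq.

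Counts were scaled by TMM and tested in edgeR 4.0.16 (R 4.3.3, limma 3.58.1) by the quasi-likelihood test, one fit per line over all regions passing filterByExpr, with Benjamini-Hochberg adjustment over all regions tested and a threshold of 0.05. CPM values use TMM-scaled library sizes. Regions of the 4 tables were matched at a reciprocal overlap of 50% for comparisons of lines. DESeq2 1.42.0 served as an alternative. Summaries used Python 3.11.15, pandas 2.3.3, numpy 2.4.6, scipy 1.17.1 and matplotlib 3.10.9. Promoter sequences are from RefSeq and matched all 10 members.

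The members and gene lists were chosen with earlier results of these data known. Named regions were the lead promoters, the 2 largest rises and 2 largest falls in each comparison among called regions of above-median abundance whose libraries did not overlap (not asked of the interaction), and the 3 matched regions of lowest p between lines. Other regions are marked as chosen after their values were seen. Same-numbered libraries correlated above 0.1 in every pair in HCC827 only (0.261 to 0.828), against −0.0098 to 0.0126 in PC9 and −0.062 to 0.0151 in H1975. In HCC2935 they did in part, with 0.0958, 0.178 and 0.206 between DTP and combo and −0.074 to 0.0145 otherwise. The fits were tested on simulated data. Depth limits low regions most, and counting noise is only part of the error. A few items of the marker and likeness lists are not reported here.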

Additional observations from a re-analysis of the deposited data

Results flagged for a closer look

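Regions where the combo against DTP change differed from the AZD5153 against control change drew attention through the interaction test. All values are on the log2 scale, and a possible stop of osimertinib in combo is not separated from AZD5153. In H1975 the difference was 3.83 at the EPHB2 intronic region chr1:22826773-22827274, 3.404 at the EPHB1 region chr3:134597462-134597963, −1.80 at the EPHB4 region chr7:100801176-100801677 and −1.52 at the EPHA2 inner promoter region chr1:16146233-16146734. The EPHB1 region held 6.22, 4.45 and 3.49 CPM in control, 0, 0.778 and 0.408 with AZD5153, 3.20, 3.65 and 4.49 in DTP and 3.75, 3.01 and 3.01 in combo. In PC9 it was 1.47 at the EPHB3 region chr3:184636780-184637281, 1.38 and −1.16 at the EPHA4 regions chr2:221533245-221533746 and chr2:221518219-221518720, and −1.05 at the EPHB4 start region chr7:100827456-100827957. The calls at chr2:221518219 and at EPHB4 were lost with DESeq2, with summed libraries and without combo library 3, for EPHB4 also without AZD5153 library 2, with an adjusted p of up to 0.14 and 0.17.

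The DTP change differed between PC9, H1975 and HCC2935 by a test of the difference, with a span of 1.65 at the EPHA4 region chr2:221517530-221518031, 2.26 at the EPHB3 region chr3:184601663-184602164 and 1.39 at the EPHA1 region chr7:143415639-143416140.

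Signal was also found at RefSeq starts outside the annotated regions. An EPHA4 region at the outer start in H1975 rose by 1.80 in DTP (0.487 to 1.79 CPM, adjusted p = 1.2e-04) and by 1.19 with AZD5153 (1.18 CPM, adjusted p = 0.026). The EPHA5 region in PC9 changed by 1.59 in DTP. A region beside the EPHB2 start in H1975 changed by 1.12 with AZD5153.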

How the results depend on the processing

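Counts of called Eph receptor regions kept within 1.5 times the value reported in 201 recomputations and moved further in 24, and the values of named regions kept direction and call in 887 and lost the call in 139. The value of 1 reversed, the interaction at the H1975 EPHA4 lead promoter, which was −0.13 with regional medians removed. With the libraries of a group summed and the spread of HCC2935, PC9 gave 14 for DTP, 6 for combo, 7 for AZD5153 and 3 for the interaction, and H1975 gave 5 for combo. DESeq2 gave 9, 8 and 5 for the last 3 in PC9, 12 for combo in H1975 and 4 for combo in HCC2935. Without a filter on low counts these were 10, 15 and 10 in PC9 and 4 in HCC2935 combo. Leaving out each library gave 22 to 26, 11 to 15, 14 to 19 and 10 to 17 in PC9 (DTP, combo, AZD5153, interaction), 31 to 38, 17 to 21, 37 to 43 and 31 to 34 in H1975, 29 to 33 and 3 to 9 in HCC2935, 0 in HCC827, 26 to 31 for DTP by line and 51 to 53 for control by line. With the replicate number as a block, HCC2935 combo gave 13, H1975 DTP 37 and DTP by line 26, the other counts were as reported, and HCC827 stayed at 0. Leaving out the H1975 AZD5153 libraries, an alternative chosen after seeing the data, gave 38 for DTP and 24 for combo, and leaving out the third library of each HCC827 group, chosen likewise, gave 0. The cause of these shifts was not tested. Depth and spread limit HCC827 most.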
